A study of Homo sapiens with 12 samples.

Results

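The cytosolic ribosomal proteins are the protein components of the ribosome that translates messenger RNA in the cytoplasm. The members described here are the rows of a raw count table that map to protein-coding symbols made of RPL or RPS, digits and at most one final A or X, together with RPLP0, RPLP1, RPLP2 and RPSA. Paralogs with other names, ribosomal protein kinases and pseudogenes were left out. There were 77 such genes of 61541 in the table, 31 of the small subunit (RPSA included) and 46 of the large subunit, and all 77 passed the filter on low counts, as did 16768 genes in all.

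The table holds RNA sequencing of 12 libraries labelled A549, an established line from a human lung adenocarcinoma, in 4 groups of 3 libraries. Control cells carried Cas9 with a non-targeting guide (NTC KO) and knockout cells carried Cas9 with a guide against TYMS (TYMS KO), which encodes thymidylate synthase, the enzyme that supplies thymidylate for DNA synthesis. Each kind of cell was grown alone or in co-culture, all in DMEM with 10% fetal bovine serum, and RNA was taken 14 days after transduction. The partner of the knockout cells was parental A549, in whose presence their proliferation was restored as the series text states. Which cells the control cells were grown with, and whether partners were separated before RNA was taken, are not given in the sources used here, and neither is whether the cells were a pool or a clone. The titles of the control samples name 1 guide and those of the knockout samples do not. The column names of the counts give 1 guide per genotype.

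A ribosome holds a single copy of most of these proteins, and the cell makes them in matched amounts. The messengers of vertebrate ribosomal proteins begin with a 5′ terminal oligopyrimidine tract (TOP), a C at the start of transcription followed by a run of C and T, through which the mTORC1 pathway and the RNA-binding protein LARP1 control their translation and stability. Ribosomal proteins made in excess of ribosomal RNA are degraded, and some of them, RPL5 and RPL11 above all, bind the ubiquitin ligase MDM2 and inhibit it when ribosome assembly is disturbed.

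Library totals ranged from 14921371 to 35723762 counts. Levels are in CPM, the usual depth-scaled count, after scaling by the trimmed mean of M-values (TMM), and each ± is the SD over 3 libraries unless marked SE. Where nothing says that libraries came from separate cultures, p-values measure only the spread between these libraries, which may be technical. TYMS, the targeted gene, had 90.3, 101 and 95.2 CPM in control libraries grown alone and 90.5, 94.2 and 95.7 CPM in those from co-culture. In knockout libraries it had 20.3, 20.96 and 21.4 CPM alone and 11.4, 11 and 10.7 CPM in co-culture. It was 4.57-fold lower in knockout than in control cells grown alone (adjusted p = 7.29e-09) and 8.46-fold lower in co-culture (adjusted p = 9.53e-10). The check of the cell line went against the control label. A549 is known to carry a homozygous deletion in 9p21 that removes CDKN2A, CDKN2B and MTAP, and the summed level of these 3 genes was 154 to 165 CPM in the control and 122 to 142 CPM in the co-cultured control libraries, against 0.547 to 0.647 CPM in the knockout and 0.302 to 0.745 CPM in the co-cultured knockout libraries. CDKN2B was at 0 in all 6 knockout libraries. The 12 genes listed as high in A549 summed to 14800 to 21500 CPM in the 6 control libraries and 19600 to 23900 CPM in the 6 knockout libraries. Of those 12, 9 were called higher (75%) and 1 lower (8.33%) in knockout against control cells grown alone, where 28.0% and 28.6% of all genes tested were. The 5 fibroblast markers summed to 11.4 to 24.1 CPM over all libraries, with COL1A2 and DCN at or near 0 in every group. The 3 leukocyte markers summed to 0.0619 to 0.237 CPM in the control and 0.851 to 3.61 CPM in the knockout libraries, with PTPRC and CD3E at or near 0 in every group. The 9p21 genes were detected in every control library, so no comparison of knockout with control can be made without this difference, and what comes with it cannot be told apart from the guide. "Control" and "knockout" below name the libraries by their labels. Where co-cultured knockout cells are set against lone ones, these genes were near 0 in all libraries used.

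The 77 genes took a smaller share of all counts in the knockout libraries. They held 8.66%, 9.21% and 9.87% of counts in the 3 control libraries and 9.58%, 8.82% and 9.44% in the co-cultured control libraries. The share was 5.533%, 7.0001% and 6.995% in the knockout libraries and 7.08%, 7.60% and 6.32% in the co-cultured knockout libraries. Group means were 9.25 ± 0.608%, 9.28 ± 0.405%, 6.51 ± 0.846% and 6.999 ± 0.641% in the same order, and no control library overlapped with a knockout library. Exact 95% binomial intervals of single libraries were narrow (8.65 to 8.67% in the first control library), far below the spread between libraries, and they cover counting error only. Both subunits took part: the small subunit genes held 3.68 ± 0.220% of counts in control and 2.58 ± 0.344% in knockout libraries, and the large subunit genes 5.57 ± 0.390% and 3.93 ± 0.502%. Genes of the mitochondrial ribosome, which translates the few messengers of the mitochondrial genome, held 0.603 ± 0.0192% and 0.498 ± 0.0355%. In bulk libraries less RNA of a kind per cell and fewer cells that make it cannot be told apart, and a share of counts also moves with every other gene.

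**Figure D1:**
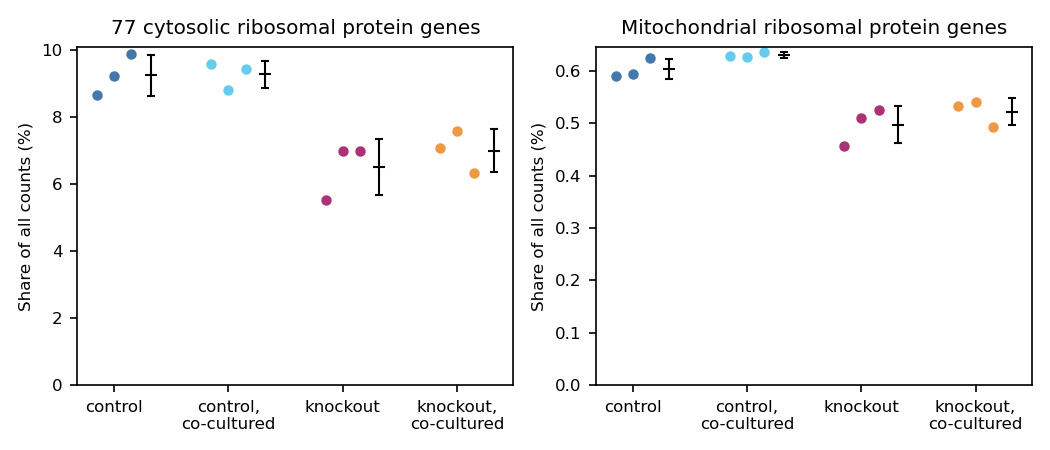
Share of all counts (%) in the 77 cytosolic ribosomal protein genes (left) and in the mitochondrial ribosomal protein genes (right), 1 point per library in 4 groups of 3, with the mean and SD as black marks. The 6 control libraries sit between 8.66% and 9.87% on the left, all above the 6 knockout libraries, which sit between 5.53% and 7.60%.

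Among cells grown alone, 40 of the 77 genes were lower in knockout than in control cells and 5 were higher, at an adjusted p under 0.05 in edgeR's quasi-likelihood test. The background is large: 28.6% of all 16768 genes tested were called lower and 28.0% higher, whereas 51.9% of the ribosomal protein genes were called lower and 6.49% higher. The median log2 fold change was -0.46 over the members and 0.09 over all genes tested. Values of 41 members lay below those of control in every knockout library and values of 4 lay above, against 31.5% and 33.8% of all genes tested. By subunit, 19 of 31 small subunit genes fell and 4 rose (RPS24, RPS7, RPS6 and RPS27A), while 21 of 46 large subunit genes fell and 1 rose (RPL11). The highest log2 fold change was 1.31, for RPS24, and the lowest was -1.74, so the members did not move as a block. More than 2-fold apart were 16 of the members called lower and 3 of those called higher. These counts stand without the share of all genes beyond 2-fold. These are differences relative to the other genes: with library totals as the only scaling, the median of all genes tested shifted to 0.24 and 40 members were called lower, 39 of them among the 40 named by TMM scaling, with 8 called higher.

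**Figure D2:**
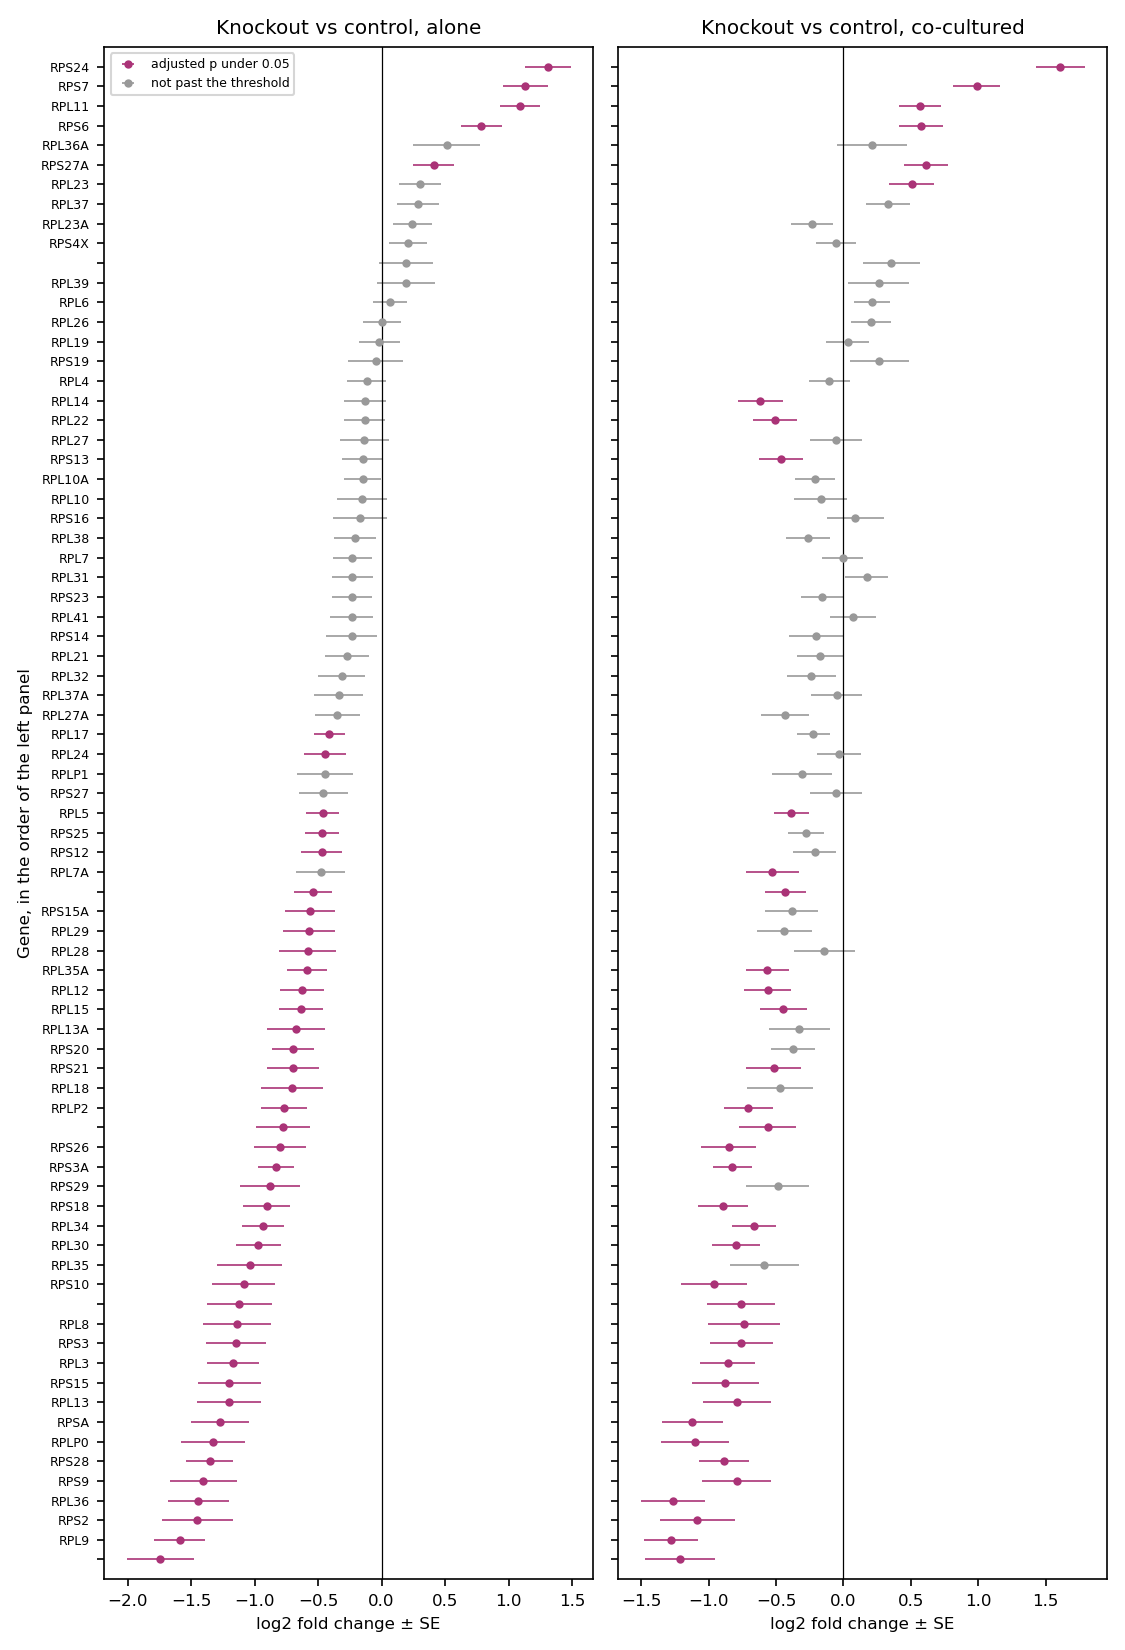
Log2 fold change with its SE for each of the 77 genes, knockout against control, grown alone (left) and co-cultured (right), in the order of the left panel (some rows carry no name). Coloured points passed an adjusted p of 0.05; most lie left of 0 in both panels, and RPS24, RPS7, RPL11 and RPS6 lie at the top right of the left panel.

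The start of transcription is where a TOP would lie. Of the 77 genes, 62 have a start in the RefSeq promoter table (GRCh38.p14), and 46 of these (74.2%) have a C followed by at least 4 bases that are each C or T (sense strand only) at a listed start base, against 5.14% of the 27305 genes in that table. The members shown are those called higher alone, 4 that were called lower and 2 paralogs, in windows of 30 bases from 10 before the start base, 5′ to 3′, with the pyrimidine run that begins at the start base in capitals. Where a gene has several listed starts, one with such a run is shown if there is any, and windows without capitals have no run that begins at the start base.
RPS24: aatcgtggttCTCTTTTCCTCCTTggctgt
RPS6: gaagttggccCTCTTTTCCgtggcgcctcg
RPL11: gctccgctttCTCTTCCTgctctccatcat
RPS27A: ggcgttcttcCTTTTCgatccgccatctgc
RPS7: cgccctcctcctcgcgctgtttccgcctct
RPL36: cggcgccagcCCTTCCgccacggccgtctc
RPLP0: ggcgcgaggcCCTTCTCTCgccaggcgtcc
RPSA: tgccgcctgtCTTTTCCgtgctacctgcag
RPL9: taatgacgacagacgttctttctttgctgc
RPL22L1: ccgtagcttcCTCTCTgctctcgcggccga
RPS27L: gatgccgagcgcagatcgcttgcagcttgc
They lie at chr10:78033853-78033882 (plus strand), chr9:19380217-19380246 (minus), chr1:23691796-23691825 (plus), chr2:55232678-55232707 (plus), chr2:3575250-3575279 (plus), chr19:5690285-5690314 (plus), chr12:120201092-120201121 (minus), chr3:39406710-39406739 (plus), chr4:39458903-39458932 (minus), chr3:170870176-170870205 (minus) and chr15:63157458-63157487 (minus), in the order shown. RPS24 and RPS6, which rose, and RPLP0 and RPSA, which fell, all begin with such a run. By direction, a run was found at a start base in 4 of 5 members called higher alone, 22 of 30 called lower (73.3%) and 20 of 27 not called (74.1%). The windows of RPS7, RPL9 and RPS27L hold no such run that begins at the start base. In RPS7 and RPL9 one begins within 10 bases of the start. That held for 57 of the 62 members (91.9%), against 38.4% of all genes in that table. A match describes letters at annotated starts, not the starts used in these cells.

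On GRCh38 (GENCODE 29), the 4 genes that rose most are RPS24 (chromosome 10, 78033732 to 78056813), RPS7 (chromosome 2, 3575205 to 3580920), RPL11 (chromosome 1, 23691742 to 23696835) and RPS6 (chromosome 9, 19375715 to 19380254). Among those that fell most are RPL9 (chromosome 4, 39452521 to 39458949), RPS2 (chromosome 16, 1962052 to 1964860) and RPL36 (chromosome 19, 5674947 to 5691876). Among the small subunit genes, RPS24, whose protein takes part in the maturation of 18S ribosomal RNA, rose most. It had 228, 145 and 218 CPM in the control libraries and 446, 552 and 469.6 in the knockout libraries, with 205, 179 and 163 against 596, 507 and 567 in co-culture. Every knockout library was thus above every control library, alone and in co-culture. The fold change was 2.48 alone (log2 1.31 ± 0.18 SE, adjusted p = 4.91e-05) and 3.05 in co-culture (adjusted p = 9.99e-06). RPS7, which also binds MDM2, had 280.3, 202 and 204 CPM in control and 405, 589.8 and 509.6 CPM in knockout libraries. It was 2.19-fold higher (log2 1.13 ± 0.18 SE, adjusted p = 0.00015), again without overlap. RPS6, the ribosomal protein that S6 kinases phosphorylate downstream of mTORC1, had 929.8, 758 and 704 CPM in control and 1329, 1599 and 1191 CPM in knockout libraries, 1.72-fold higher (log2 0.78 ± 0.16 SE, adjusted p = 0.00117). RPS6 lies on the same arm of chromosome 9 as the 9p21 genes, and the 8 genes tested within 1 Mb of it had a median log2 fold change of 2.26. RPS27A, which is made as a fusion with ubiquitin, had 453, 311 and 411 CPM in control against 442, 603 and 518 CPM in knockout libraries. Its groups overlapped, its adjusted p was 0.046, and the call was lost in 17 of 22 alternative analyses, while in co-culture it was 1.53-fold higher without overlap (adjusted p = 0.00714).

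RPS2, at the entry of the messenger channel, fell most among the small subunit genes. It had 5388, 7652 and 9532 CPM in control libraries grown alone and 4769, 5690 and 7015 CPM in those from co-culture. In knockout libraries it had 1958, 2874 and 3425 CPM alone and 2904, 3412 and 1918 CPM in co-culture. All 6 control libraries were above all 6 knockout libraries, and the difference alone was 2.73-fold (log2 -1.45 ± 0.28 SE, adjusted p = 0.000772). RPSA, also known as the laminin receptor, had 1664, 2258 and 2762 CPM in control and 683, 1066 and 1023 CPM in knockout libraries and was 2.41-fold lower alone (adjusted p = 0.000445) and 2.18-fold lower in co-culture (adjusted p = 0.00123). RPS4X, the X-linked copy of RPS4, had 665, 785 and 698 CPM in control and 766, 972 and 748 CPM in knockout libraries. Those values overlapped, and its log2 fold change was 0.21 ± 0.15 SE (adjusted p = 0.244). RPS27, a zinc finger protein of the small subunit, had 569.9, 610 and 762 CPM in control against 349, 499.6 and 565 CPM in knockout libraries. Its knockout values lay below control, but the log2 fold change of -0.46 ± 0.19 SE did not pass the test (adjusted p = 0.0584). Other small subunit genes called lower included RPS9, RPS28, RPS15, RPS3, RPS10, RPS18, RPS29, RPS3A, RPS26, RPS21, RPS20, RPS15A, RPS12 and RPS25, from -1.40 for RPS9 to -0.47 for RPS25 on the log2 scale.

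**Figure D3:**
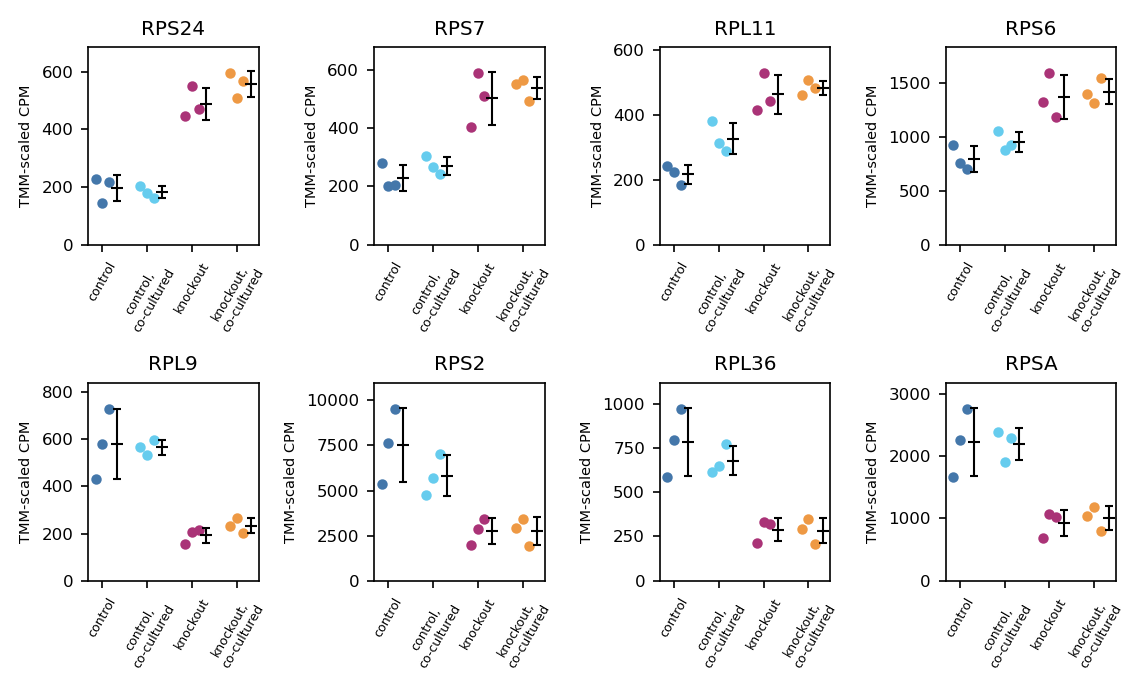
TMM-scaled CPM of the 4 genes that rose most (top) and of 4 that fell more than 2-fold (bottom) in knockout against control cells grown alone, 1 point per library with the group mean and SD as black marks, each axis starting at 0. For RPS24, the 6 knockout libraries sit at 446 to 596 CPM and the 6 control libraries at 145 to 228 CPM; for RPL9 the order is the other way round.

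In the large subunit, RPL9 and RPL36 were among the genes that fell most. RPL9, a protein near the base of the P stalk, had 430.1, 578 and 729 CPM in control against 155, 206 and 217 CPM in knockout libraries and was 3.01-fold lower (log2 -1.59 ± 0.20 SE, adjusted p = 2.39e-05). RPL36 had 585, 795 and 971 CPM in control against 213, 330 and 322 CPM in knockout libraries and was 2.72-fold lower (log2 -1.44 ± 0.24 SE, adjusted p = 0.000247). In each of these genes the highest knockout library was below the lowest control library. RPL3, which reaches toward the peptidyl transferase centre, had 2912, 3779 and 4689 CPM in control and 1423, 1839 and 1805 CPM in knockout libraries and was 2.25-fold lower (adjusted p = 0.000367). RPL10, which joins the large subunit late and is needed for subunit joining, did not pass the test: it had 1235, 1621 and 1745 CPM in control against 1051, 1527 and 1562 CPM in knockout libraries, with overlapping groups and a log2 fold change of -0.15 ± 0.20 SE (adjusted p = 0.528).

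The P stalk, which recruits and activates the translational GTPases, consists of RPLP0 and dimers of RPLP1 and RPLP2. RPLP0 had 3822, 5701 and 7273 CPM in control and 1655, 2505 and 2517 CPM in knockout libraries and fell 2.52-fold (adjusted p = 0.000648). RPLP2 had 1010, 1090 and 1104 CPM in control against 481, 717 and 686 CPM in knockout libraries, 1.70-fold lower (adjusted p = 0.00307). RPLP1 had 2608, 3229 and 3754 CPM in control against 1718, 2635 and 2699 CPM in knockout libraries, with overlap, and did not pass the test (log2 -0.44 ± 0.22 SE, adjusted p = 0.102). Whether RPLP0 and RPLP1 differ in their response was not tested.

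RPL5 and RPL11 form the 5S ribonucleoprotein particle together with 5S ribosomal RNA, the particle that binds MDM2, and their messengers went opposite ways. RPL11 had 242, 224 and 184 CPM in control and 416, 529.7 and 443 CPM in knockout libraries, 2.13-fold higher (log2 1.09 ± 0.16 SE, adjusted p = 7.2e-05). RPL5 had 594, 533 and 564 CPM in control and 414, 455 and 357 CPM in knockout libraries, 1.38-fold lower (log2 -0.46 ± 0.13 SE, adjusted p = 0.00795). Neither gene's groups overlapped. In co-culture both kept their direction, with RPL11 1.48-fold higher (adjusted p = 0.0085) and RPL5 1.31-fold lower (adjusted p = 0.0233). The co-culture call of RPL11 was lost without the third co-cultured control library (adjusted p = 0.0514), and that of RPL5 in 9 of 22 alternatives (adjusted p from 0.00752 to 0.331). Grown alone, RPL5 was no longer called with library totals as the only scaling (adjusted p = 0.0909) or without the filter on low counts (adjusted p = 0.0538). RPL23, which also binds MDM2, had 741, 645 and 819 CPM in control against 739.8, 1024 and 955 CPM in knockout libraries grown alone (adjusted p = 0.138) and 779, 738 and 917 against 1150, 1292 and 1016 CPM in co-culture, where it was 1.42-fold higher (adjusted p = 0.0227, and 0.00235 to 0.0981 over the alternatives, 7 of which lost the call).

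RPL41, RPL39, RPL36A and RPL22 of the large subunit did not pass the test in cells grown alone. RPL41, the shortest ribosomal protein, had 348, 366 and 433 CPM in control and 259.9, 323 and 392 CPM in knockout libraries (log2 -0.23 ± 0.17 SE, adjusted p = 0.258). RPL39, which lines the exit tunnel, had 49.5, 34.7 and 47.9 CPM in control against 35.2, 71.7 and 44.05 CPM in knockout libraries (log2 0.19 ± 0.23 SE, adjusted p = 0.488). RPL36A had 3.35, 2.03 and 3.06 CPM in control against 4.995, 3.73 and 3.29 CPM in knockout libraries (adjusted p = 0.112), low values for a ribosomal protein, and 48.2% of its reference transcript overlaps exons of the readthrough gene RPL36A-HNRNPH2. RPL22 had 59.8, 55.2 and 52.2 CPM in control against 59.1, 47.2 and 46.2 CPM in knockout libraries grown alone (adjusted p = 0.503) and 71.9, 61.5 and 73.5 against 45.5, 40.1 and 59.9 CPM in co-culture, where it was 1.42-fold lower (adjusted p = 0.0197, and 0.000276 to 0.115 over the alternatives, 7 of which lost the call). Overlap with other genes also covers 88.1% of the reference transcript of RPL17, 77.02% of RPS10 and 59.0% of RPL26. It covers 46.65% of RPL10, 45.2% of RPL30 and 44.7% of RPS23. The counting's treatment of reads shared between genes and of strand is not given in the sources used here, so the levels of these genes are uncertain. Counts of 1586 rows named as pseudogenes of members came to 0.950 to 1.33 per 100 member counts in a library. They were unevenly spread, with 442 per 100 counts of RPL36A and 74.5 per 100 of RPS28, whose levels are uncertain. Adding them to their parent genes left 5 higher and 41 lower.

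Per kilobase of transcript, the most abundant members in control cells were RPS2 at 8143 ± 2246 CPM per kb, RPL8 at 7541 ± 2222, RPLP1 at 7185 ± 1289 and RPLP0 at 5638 ± 1740, neighbours in the order that do not differ beyond their spread. In knockout cells the order began with RPLP1 at 5282 ± 1233 CPM per kb, RPS19 at 4521 ± 972, RPS16 at 4053 ± 892 and RPL8 at 3430 ± 833. RPS24 went from rank 64 of 77 in control to rank 38 in knockout cells, and RPL9 from rank 48 to rank 66. At the bottom stood RPL36A at 4.07 ± 1 CPM per kb in control cells. Lengths are those of the protein-coding transcript of median length in GENCODE 29, and another choice of transcript would change the order.

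In co-culture, 32 members were lower and 6 higher in knockout than in control cells, where 25.3% and 24.1% of all genes tested were called lower and higher. The median log2 fold change was -0.37 over members and -0.02 over all genes. These libraries are not those of the lone cells. Of the 40 genes called lower alone, 28 were also called lower in co-culture (70% of the former and 87.5% of the latter), where the same share for all genes called lower alone was 71.5%. All 5 genes called higher alone were called higher in co-culture (5 of the 6), where 64.5% of all genes called higher alone were, and no member was called in opposite directions. Called lower in lone cells but not past the threshold in co-culture were RPL13A, RPL17, RPL18, RPL24, RPL28, RPL29, RPL35, RPS12, RPS15A, RPS20, RPS25 and RPS29, and the reverse held for RPL14, RPL22, RPL7A and RPS13. Whether a difference changed with co-culture is the interaction, in which 0 members were called by edgeR. RPL9 was 2.43-fold lower (adjusted p = 0.000147), RPL36 2.41-fold (adjusted p = 0.000721) and RPLP0 2.14-fold (adjusted p = 0.00273), and RPS7 was 1.98-fold higher (adjusted p = 0.000466). The count of 32 is sensitive to single libraries: it was 21 without the first co-cultured control library, 21 without the third co-cultured knockout library, and 19 when only these 2 groups were fitted.

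Between co-cultured and lone knockout cells, 0 of 77 genes were called in either direction by edgeR, against 5.97% of all genes called higher and 5.40% called lower. At an unadjusted p under 0.05 there were 6 (RPL17, RPL24, RPS12 and RPS25 above, RPL23A and RPL14 below lone knockout), against 5053 of all 16768 genes tested. The smallest adjusted p among members was 0.0517, for RPL17. DESeq2 called 2 higher and 1 lower. The median log2 difference was 0.16 over members and 0.01 over all genes, and 65 of the 77 differences were positive. RPL17 had 47.5, 51.2 and 51.2 CPM in the lone and 66.2, 66.3 and 64.7 CPM in the co-cultured knockout libraries, without overlap (log2 0.40 ± 0.12 SE). RPL24, which joins the large subunit after nuclear export, had 362, 473 and 525 CPM in the lone against 630, 666 and 547 CPM in the co-cultured libraries (log2 0.44 ± 0.16 SE, adjusted p = 0.0985). RPL23A had 303, 372 and 332 CPM in the lone against 235, 214 and 286 CPM in the co-cultured libraries (log2 -0.46 ± 0.15 SE, adjusted p = 0.072). Leaving out the third co-cultured knockout library gave 3 members higher and 1 lower, and correcting for GC content gave 6 higher (RPL5, RPL6, RPL17, RPL24, RPS6 and RPS25) and 2 lower (RPL23A and RPLP2), where 16.0% and 14.5% of all genes were then called. The counts from DESeq2 and from the left-out library stand without such a share, so they are not read as a result about the members.

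Between co-cultured and lone control cells edgeR and DESeq2 called 0 of 77 members, and 0% of all genes tested in either direction. At an unadjusted p under 0.05 there was 1 member, RPL11, with 242, 224 and 184 CPM alone and 379.6, 312 and 288 CPM in co-culture (log2 0.59 ± 0.16 SE, unadjusted p = 0.0023, adjusted p = 1). Its groups did not overlap. Of all 16768 genes tested, 540 had an unadjusted p under 0.05 in this comparison. In the interaction, which subtracts the co-culture effect seen in control cells from that seen in knockout cells, 0 of 77 members were called by edgeR or DESeq2, against 1.51% of all genes called higher and 0.286% called lower. RPL11 (-0.53 ± 0.22 SE on the log2 scale, adjusted p = 0.232) and RPL23A (-0.47 ± 0.22 SE, adjusted p = 0.264) had an unadjusted p under 0.05, as did 3135 of all 16768 genes tested.

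The members' fold changes moved with the GC content of their annotated transcripts. Across the 77 genes, the log2 fold change alone had a Pearson r of -0.519 and a Spearman rho of -0.497 with GC content, and the 16505 genes tested with a GC value had -0.310 and -0.396; in co-culture the members had -0.449 and -0.441 and all genes -0.112 and -0.109. Genes share libraries and are not independent replicates, so these are descriptions. Of the 39 members at or above the median GC content of 49.9%, 26 were called lower alone, and of the 38 below it 14 were. All 5 members called higher lay below it. The shares of all genes called on either side of that content are not given here. Fold changes of all genes moved with GC content as well, so these counts are not read as a result about the members. Replicates of one group also deviated from each other by GC content: the Spearman rho between a library's deviation from its group and GC, over members, ran from -0.762 in the third co-cultured knockout library to 0.771 in the second. With each library's GC trend removed, 54 members were lower and 5 higher alone, and 36 and 6 in co-culture. These counts stand without the share of all genes then called, so they are not read as a result about the members. Of the 40 called lower alone, 38 kept the call and RPL18 and RPL28 lost it; RPLP1, RPL22, RPL41 and RPS27 were among those that gained it. RPS24, RPS7, RPL11 and RPS6 kept their calls, RPS27A lost its own and RPS19 was called higher. The part of GC content in the fold changes was not tested further.

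**Figure D4:**
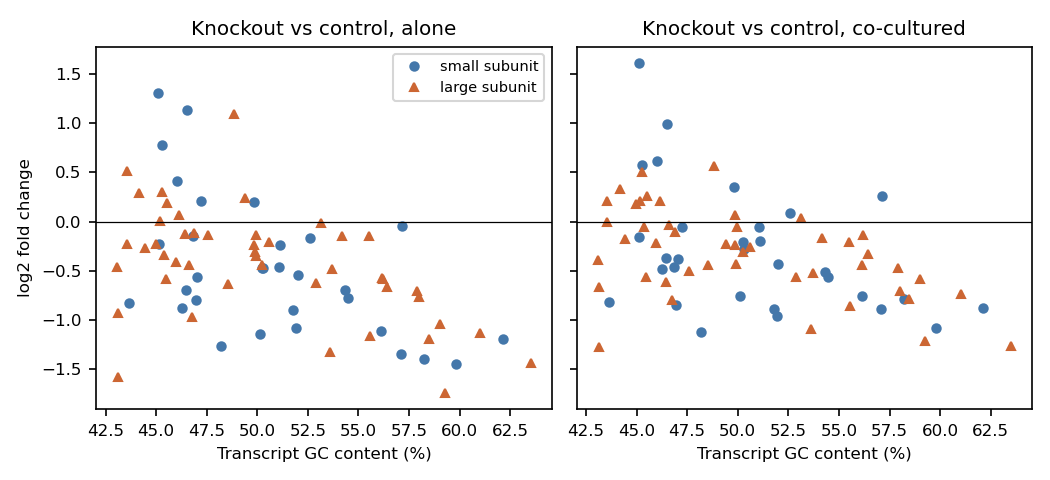
Log2 fold change of each of the 77 genes against the GC content (%) of its transcripts, knockout against control grown alone (left) and co-cultured (right), with small subunit genes as circles and large subunit genes as triangles. The genes above 0 that passed the test lie at GC contents under 49%, and those at the highest GC contents lie below 0.

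Several ribosomal proteins have a paralog that can take their place, or are made from a fusion gene. RPS27L, a paralog of RPS27, had 51.4, 36.8 and 49.8 CPM in control libraries grown alone and 47.9, 44.4 and 42.9 CPM in those from co-culture. In knockout libraries it had 228, 282 and 278 CPM alone and 391, 358 and 393 CPM in co-culture. It rose 5.71-fold alone (adjusted p = 3.96e-08) and 8.44-fold in co-culture (adjusted p = 9.96e-09), while RPS27 itself did not pass the test in either. RPL22L1, the paralog of RPL22, had 106, 86.8 and 118 CPM in control and 44.9, 54.2 and 63.7 CPM in knockout libraries, 1.91-fold lower (adjusted p = 0.000377). Both paralogs were higher in co-cultured than in lone knockout cells, RPS27L 1.45-fold (adjusted p = 0.0364) and RPL22L1 1.52-fold (adjusted p = 0.0354), and these calls were lost in 9 and 8 of 22 alternatives (adjusted p from 0.00286 to 0.156 and from 0.00396 to 0.153). RPL26L1 and RPL39L, paralogs of RPL26 and RPL39, rose 1.67-fold (adjusted p = 0.000915) and 1.58-fold (adjusted p = 0.0238) alone, and 6 alternatives lost the call of RPL39L. FAU, which encodes RPS30 as a fusion with a ubiquitin-like protein, fell 1.87-fold (adjusted p = 0.00314). RPL36AL and RPL7L1 did not pass the test, at log2 -0.23 ± 0.16 SE and 0.11 ± 0.16 SE.

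**Figure D5:**
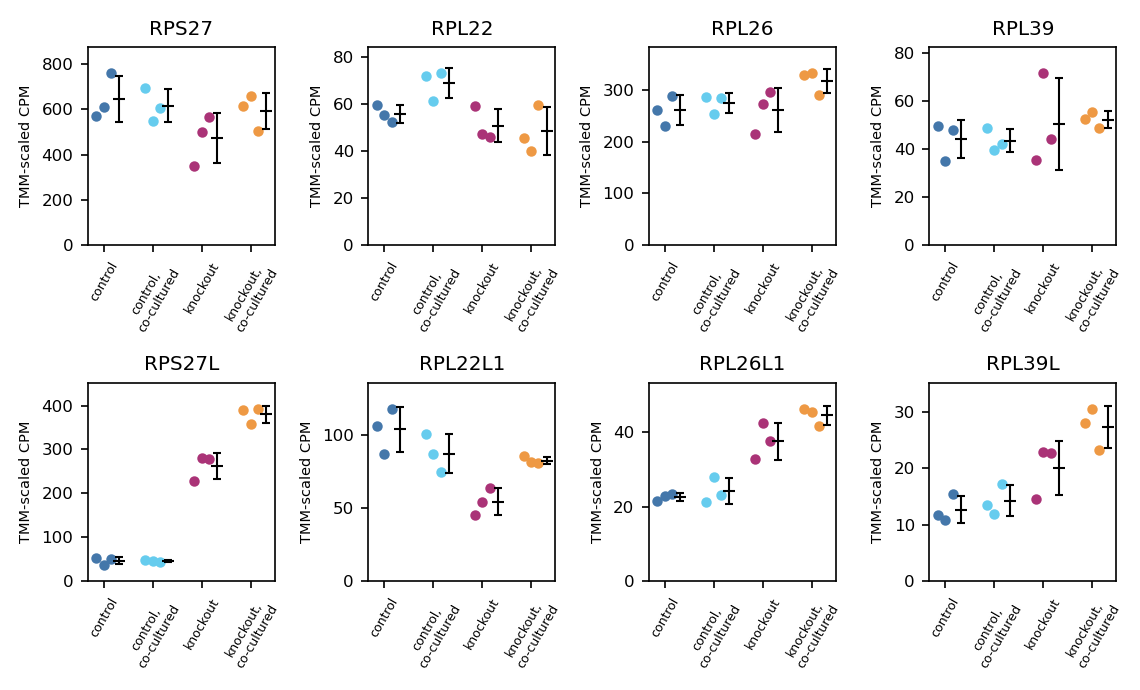
TMM-scaled CPM of 4 ribosomal protein genes (top) and their paralogs (bottom), 1 point per library with the group mean and SD as black marks, each axis starting at 0. RPS27L is at 36.8 to 51.4 CPM in the 6 control libraries and at 228 to 393 CPM in the 6 knockout libraries, while those of RPS27 overlap between the 6 control and the 6 knockout libraries.

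Other genes of translation and ribosome production are read against all genes tested, of which 28.6% were called lower and 28.0% higher alone, and 25.3% and 24.1% in co-culture. Among 20 translation factors and related genes tested whose messengers also start with a TOP, 10 were called lower (50%) and 2 higher (10%) alone, and 7 were lower in co-culture (35%). EEF2, the elongation factor that moves the ribosome along the messenger, had 5379, 7771 and 8437 CPM in control and 1971, 2565 and 2697 CPM in knockout libraries, 2.98-fold lower (adjusted p = 7.05e-05), and EIF4B, a helicase cofactor, was 1.56-fold lower (adjusted p = 0.0027, and 0.0514 with library totals as the only scaling). Of 18 genes of mTORC1 and its TOP regulators, 4 were higher (22.2%) and 6 lower (33.3%) alone, near the shares over all genes. LARP1, which binds the TOP, had 262, 253 and 244 CPM in control and 500.1, 499 and 532 CPM in knockout libraries, 2.02-fold higher (adjusted p = 1.62e-05). SESN1, an inhibitor of mTORC1, was 4.51-fold higher (adjusted p = 0.000229).

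Of 30 ribosome biogenesis factors, 9 were lower (30%) and 3 higher (10%) alone, the former near the share over all genes, and 12 were lower in co-culture (40%). NOP14, needed for the small subunit, had 138, 146 and 151 CPM in control and 62.2, 61.5 and 62.1 CPM in knockout libraries, 2.34-fold lower (adjusted p = 1.43e-06), and RRP9, a protein of the U3 particle, was 3.02-fold lower (adjusted p = 7.14e-05). Between co-cultured and lone knockout cells 4 of the 30 fell (DKC1, HEATR1, NCL and UTP20), which is 13.3%, against 5.40% of all genes tested. In the set of RNA polymerase I, which transcribes ribosomal RNA, 4 of 12 genes were lower (33.3%) and 3 higher (25%) alone, again near the shares over all genes. POLR1C was 1.85-fold lower (adjusted p = 0.000225) and TAF1C 1.89-fold lower (adjusted p = 0.000295), and TAF1C was not called with GC offsets, without or with the replicate block (adjusted p = 0.224 and 0.269). Among 10 genes of the 5S particle, ribosomal protein chaperones and MDM2, 2 were higher (20%), MDM2 among them, and 3 lower (30%) alone, which does not stand apart from all genes. MDM2 had 22.4, 10.5 and 8.85 CPM in control and 128, 99.1 and 86.3 CPM in knockout libraries, 7.52-fold higher (adjusted p = 0.000267), and 16.4, 17.6 and 11.2 against 46.1, 25.2 and 112 CPM in co-culture. NOP53, which binds the 5S particle during large subunit assembly, was 2.54-fold lower (adjusted p = 0.000808).

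The proteins of the mitochondrial ribosome are a comparison group of like number, with 77 of 78 genes tested. There 35 were lower (45.5%) and 12 higher (15.6%) alone, at a median of -0.36 on the log2 scale. In co-culture 23 were lower (29.9%), close to the 25.3% of all genes, and 10 higher (13%), at a median of -0.29. Whether the 2 kinds of ribosome differ was not tested. MRPL2 was 2.93-fold lower alone (adjusted p = 3.28e-05) and MRPL15 2.72-fold higher (adjusted p = 4e-06).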

How the data were processed

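RNA sequencing of 12 libraries was analysed. The values are raw read counts for 61541 Ensembl genes in a single table, taken here as the authors deposited them. Per the labels' protocols, RNA was isolated with miRNeasy columns and 500 ng went into the NEBNext Ultra RNA kit. Per the submitters' processing notes, FastQC, STAR 2.7.9a, featureCounts, R 4.2.1 and DESeq2 1.36.0 were used with GRCh38/hg38, with no settings; the strand setting and the annotation are not given in the sources used here.

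Groups came from the labels, and table columns were matched to samples by name. In R 4.3.3, edgeR 4.0.16 kept 16768 genes (filterByExpr on 4 groups), scaled libraries by TMM, fitted one model of 4 group means to all 12 libraries and tested genes by the robust quasi-likelihood F-test, two-sided, with Benjamini-Hochberg adjustment over all genes in each of 5 comparisons. Calls were made at 0.05 after adjustment. The fit was tested on simulated data. Symbols came from a separate list of gene names, gene types, positions, lengths and GC content from GENCODE 29 on GRCh38, and start sequences from RefSeq. Replicates differed by a chi-square of 8.02 to 127 per gene, where counting noise gives about 1, so each library counts once. At 14921371 counts a gene at 3 counts stands at the floor, and such limits cover counting error only.

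The members and lists were chosen with earlier results of these data known. Named members are, per comparison, the 4 highest and 4 lowest log2 fold changes among called members whose groups do not overlap (interaction, 3 and 3), 17 genes named for their roles, each paralog or fusion gene tested, and in each other list the 2 genes with the smallest p in knockout against control grown alone; RPL17, RPL24 and RPL23A and the members given for their level or rank were chosen after their values were seen. A few genes that the rule names are not reported here. Alternatives were DESeq2 1.42.0, its size factors in edgeR, library totals only, TMM without members, no filter, only the groups compared, a replicate block, GC offsets (lowess span 0.3), pseudogene counts added to members, and each library left out.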

Additional observations from a re-analysis of the deposited data

Results flagged for a closer look

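Co-culture moved 2 of the genes described differently in knockout and in control cells, by the interaction term of edgeR. SESN2, a stress-induced inhibitor of mTORC1 and the only gene of its list called in that test, was chosen after its values were seen: its co-culture difference was 1.38 higher on the log2 scale in knockout than in control cells (adjusted p = 0.0162), and this call was lost on leaving out any of 6 single libraries (adjusted p from 0.0546 to 0.0649). TYMS, the targeted gene, had a difference of -0.89 on the log2 scale (adjusted p = 0.0107), with 20.3 to 21.4 CPM in lone and 10.7 to 11.4 CPM in co-cultured knockout libraries; without the filter on low counts it was -0.78 and not called (adjusted p = 0.103). No ribosomal protein gene met these criteria.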

How the results depend on the processing

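Over all 22 alternatives, 31 of the 40 members called lower and 4 of the 5 called higher in knockout against control cells grown alone kept their call, as did 17 of 32 and 4 of 6 in co-culture. Alone, 33 to 43 members were lower and 4 to 6 higher when single libraries were left out, and 8 were higher with library totals as the only scaling. In co-culture, 21 to 35 were lower when single libraries were left out, and 19 with only the groups compared, where fewer libraries set the spread. Between co-cultured and lone knockout cells, against 0 and 0 by edgeR, DESeq2 gave 2 higher and 1 lower, library totals 1 higher, no filter 1 higher, GC offsets 6 higher and 2 lower, and the replicate block with GC offsets 4 higher and 2 lower; leaving out single libraries gave 0 to 3 higher and 0 to 1 lower. Why was not tested. Apart from GC offsets between the knockout groups, these alternative counts stand without the share of all genes called. They are not read as a result about the members. Member medians and the alternatives of TYMS, SESN2, paralogs and listed genes were added after seeing the data; over all settings the median ran from -0.56 to -0.31 alone, from -0.49 to -0.28 in co-culture and from 0.02 to 0.29 between the knockout groups.

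Replicate numbers did not pair the libraries throughout: same-numbered deviations correlated at -0.54 to 0.49. For replicates 1, 2 and 3 the values were 0.49, -0.02 and 0.38 between lone knockout and lone control libraries. Between the control groups they were 0.19, -0.05 and 0.41. In comparisons with the co-cultured knockout libraries they ran from -0.54 to 0.08. With the replicate block, 40 members were lower and 4 higher alone, 29 and 6 in co-culture, and 0 and 0 between the knockout groups. Among the genes named by rule, only genes that had not passed the test reversed direction. Alone, GC offsets and the block with GC offsets turned RPL23 to -0.11 and -0.12, RPS4X to -0.088 and -0.093, RPL39 to -0.20 and -0.24, RPL10 to 0.019 and 0.015 and RPL7L1 to -0.24 and -0.24 (log2), library totals turned RPL22 to 0.023 and RPL10 to 0.011, and pseudogene counts turned RPL36A to -0.17. Among the other members, GC offsets also turned RPL6 from 0.06 to -0.30 (adjusted p = 0.032) and RPS19 from -0.05 to 0.35 (adjusted p = 0.00685), both then called, and, not called, RPL37 to -0.17, RPL26 to -0.41, RPL10A to 0.12 and RPL19 to 0.08. In co-culture, no filter turned RPS4X to 0.037, RPS27 to 0.048 and RPL22L1 to 0.011, GC offsets turned RPL22L1 to 0.15, with or without the block, and RPL37A to 0.0056 and RPL7 to 0.078, and only the groups compared turned RPS27 to 0.0013. Leaving out single libraries gave -0.16 to 0.39 for RPL39 and -0.29 to 0.0084 for RPL10 alone, and in co-culture -0.13 to 0.047 for RPS4X, -0.17 to 0.055 for RPS27, -0.040 to 0.19 for RPL41, -0.22 to 0.028 for RPL22L1 and -0.081 to 0.16 for RPL36AL.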

Other observations

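The fold changes of members ran alongside those of their chromosomal neighbours. Across the 77 genes, the log2 fold change in knockout against control cells grown alone had a Pearson r of 0.506 and a Spearman rho of 0.461 with the median of the tested genes within 1 Mb, given as a description because neighbouring members share neighbours and all share libraries. RPL36 on chromosome 19 fell in a region whose median was -1.23 (40 genes). RPS7 rose where the median was 0.81 (7 genes), and RPS27A where it was 1.16 (12 genes). RPL9 fell where the median was 0.79 (18 genes), and RPL11 rose where it was -0.23 (30 genes), so these genes moved against the median of their neighbours. The part that position plays was not tested.

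Members with high levels in control cells tended to have lower fold changes: the log2 fold change alone had a Pearson r of -0.457 with the log2 mean CPM of the control libraries over the 77 genes, a description in which both measures share the control libraries. With the length of the reference transcript the r was -0.0754.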
